A study of Homo sapiens with 4 samples.

Results

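Desmosome and adherens junction genes of the intercalated disc were examined in day 14 human cardiomyocytes made along 2 routes. The 10 genes were DSP, DSG2, DSC2, PKP2, JUP, CDH2, CTNNA3, CTNNB1, VCL and TJP1, taken by symbol from 23615 gene symbols, and each had a single row in the gene table. No rule on measured values picked them, but they were chosen with earlier results of these data known. Of the 10, 5 encode desmosome proteins, 4 adherens junction proteins and 1 a tight junction scaffold. All 10 had a mean of at least 1 FPKM (fragments scaled by transcript length and by library size) and entered the test.

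Poly-A RNA of unsorted cultures of RUES2, an established line of human embryonic stem cells, was sequenced from 4 libraries, with 2 biological replicates in each of 2 groups. Both groups were induced with 100 ng/ml activin A on day 0 and 5 ng/ml BMP4 on day 1 (A100/B5). CHIR-99021, a GSK3 inhibitor, was given before induction and again together with BMP4. The ECsXAV group was switched on day 2 to endothelial medium with VEGF, bFGF and further BMP4. From day 5 it received 2 µM of the tankyrase inhibitor XAV-939 (XAV), which dampens Wnt/β-catenin signaling. The CPC group passed through cardiac progenitor cells under a protocol that adds 1 µM XAV on day 3 in some experiments, and the methods do not say whether these libraries were among them. Both groups come from 1 cell line, so the spread between replicates holds no variation between lines.

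The intercalated disc joins cardiomyocytes end to end. In its desmosomes, the cadherins desmoglein and desmocollin hold neighboring cells together, plakoglobin and plakophilin bind the cadherin tails, and desmoplakin ties the complex to desmin filaments. In its adherens junctions, N-cadherin is linked by β-catenin or plakoglobin to α-catenin, and α-catenin and vinculin reach the actin of the myofibrils. Inherited variants in several desmosome genes are known from arrhythmogenic cardiomyopathy. β-catenin is also the transcriptional effector of the Wnt pathway that XAV dampens.

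All 8 cardiomyocyte markers examined were at 1 FPKM or more in every library, and their summed FPKM, more of it from MYL7 than from all others, were 14100 and 13600 in ECsXAV and 12300 and 13000 in CPC. Of the 8, 3 differed past the criterion given below, MYH7 (log2 fold change from ECsXAV to CPC -2.52) and MYBPC3 (-1.04) with higher levels in ECsXAV and MYH6 (1.21) with higher levels in CPC. Of 8 endothelial markers, 5 stayed under 1 FPKM in every library, among them PECAM1 and VWF, and the sum was 11.1 to 14.3 FPKM. Markers of other cell types that passed the criterion were all higher in ECsXAV, while others of the same lists did not pass or were not tested. Stromal markers summed to 117 and 152 FPKM in ECsXAV and to 65.3 and 54.7 FPKM in CPC (3 of 8 genes under 1 FPKM throughout), and smooth muscle markers to 291 and 261 against 136 and 162 FPKM (1 of 4). Past the criterion were 3 of the 8 stromal genes (COL1A1, COL3A1 and LUM) and 1 of the 4 smooth muscle genes (TAGLN), all higher in ECsXAV. CNN1 (-0.84, limma adjusted p = 0.0803) did not pass, nor did PDGFRA (0.19), POSTN (0.15) and ACTA2 (0.16), which had small positive values. MYH11, under 1 FPKM, was not tested. KRT8 and KRT18 were listed at 0 in ECsXAV replicate 1 and CPC replicate 2. The other 9 epithelial and endodermal markers summed to 288 and 342 against 144 and 201 FPKM. Of these, AFP (-3.31, limma adjusted p = 0.00308) and TTR (-1.94, adjusted p = 0.0358) passed the criterion, both higher in ECsXAV. Most of the sum came from KRT19, at 82.1 to 222.7 FPKM, and CLDN6, at 42.1 to 83.5 FPKM. Neither passed (-0.95, limma adjusted p = 0.144, and -0.70, adjusted p = 0.111), nor did EPCAM (-0.74) or APOA1 (-0.18). CDH1 was at no more than 0.196 FPKM. Cycling markers summed to 46.0 and 38.6 against 15 and 13.6 FPKM, and all 4 (MKI67, TOP2A, CCNB1 and CDK1) passed the criterion, higher in ECsXAV. The part of these cells in the results on the 10 genes was not tested, and in bulk RNA fewer cells of a type and less RNA per cell cannot be told apart. The total depth of the libraries is unknown, but low values placed ECsXAV replicate 2 at 50.1%, CPC replicate 1 at 86.9% and CPC replicate 2 at 79.8% of the depth of the remaining library.

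None of the 10 genes passed the criterion, a more than 2-fold change at an adjusted p under 0.05, between CPC and ECsXAV (limma on log2(FPKM + 1), Benjamini-Hochberg over 12398 genes), where 2.15% of all tested genes did. At an unadjusted p under 0.05 the count was also 0 of 10, against 18.2% of all tested genes. The 95% confidence interval of the difference stayed within 2-fold in both directions for all 10 genes, which held for 87.7% of tested genes. It stayed within 1.5-fold for 8 of the 10, where the share over all tested genes was not computed. CTNNA3 and JUP were the exceptions at 1.5-fold. The count within 2-fold was 9 with no filter on low values or without ECsXAV replicate 1, and 8 without ECsXAV replicate 2. Of the 10, 7 had a lower and 3 a higher mean log2 value in CPC, and 50.8% of all tested genes were lower. The median log2 fold change (CPC minus ECsXAV) was -0.11, beside 0.00 over all tested genes, and the median size was 0.16 beside 0.17. The groups did not overlap for 4 of the 10 genes, DSP, DSG2 and TJP1 with higher values in ECsXAV and VCL with higher values in CPC. Non-overlap occurred in 49.8% of all tested genes (25.4% with higher values in ECsXAV and 24.4% in CPC), so 4 of 10 was not above the background.

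**Figure D1:**
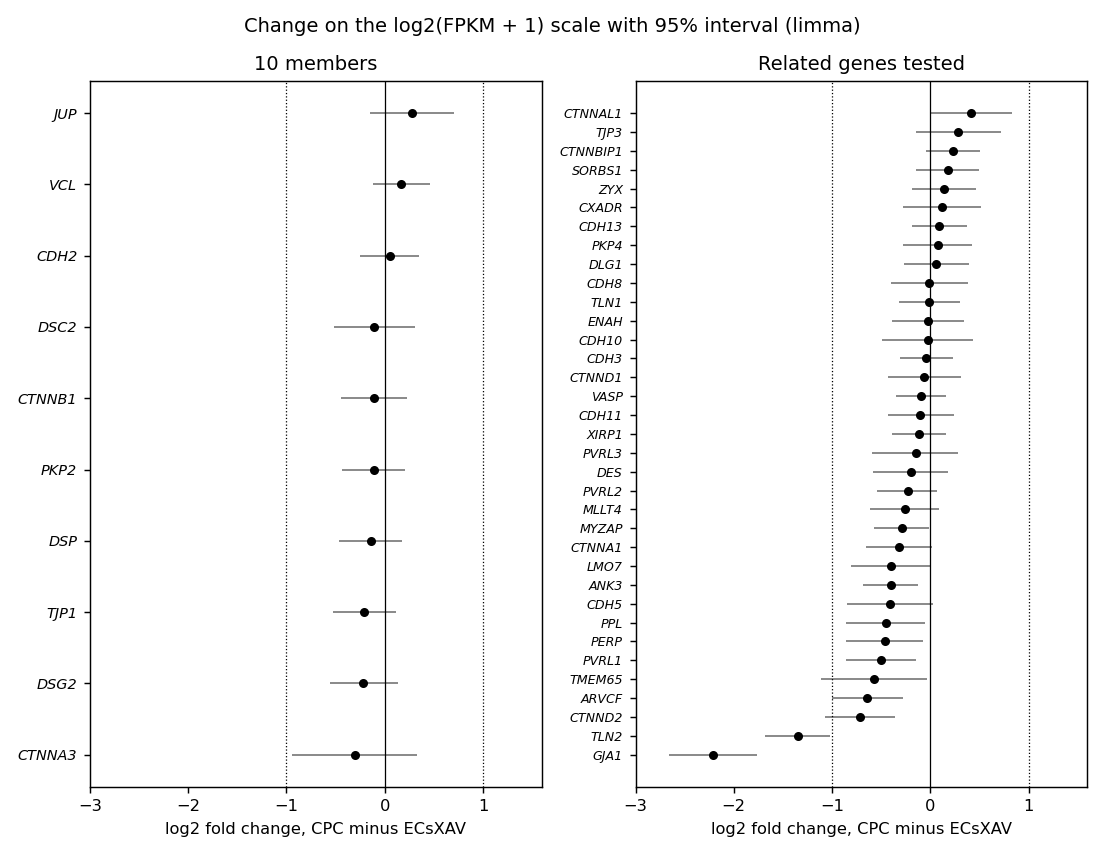
Log2 fold change from ECsXAV to CPC on the log2(FPKM + 1) scale (x axis) for the 10 genes (left) and the related junction genes tested, all but 1 of them drawn (right). Points are the limma estimates from 2 libraries in each group, lines their 95% confidence intervals and dotted lines a 2-fold change, and all 10 intervals on the left stay between the dotted lines while GJA1 and TLN2 on the right lie past -1.

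The levels spanned from 9.47 FPKM for DSC2 to 212 FPKM for CDH2 as means over 4 libraries, and DSC2 lay above 53.4% and CDH2 above 98.7% of tested genes. CDH2 was highest and DSC2 lowest in each library, followed at the top by CTNNB1 (124.9 FPKM) and PKP2 (102.5 FPKM), whose ranges overlapped each other. VCL (81.6 FPKM), DSP (78.8 FPKM) and JUP (74.0 FPKM) had overlapping ranges and changed places between libraries. DSG2 (31.3 FPKM), TJP1 (25.7 FPKM) and CTNNA3 (24.4 FPKM) formed the next set of overlapping ranges. FPKM are per length, so these are comparisons of transcript level between genes.

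**Figure D2:**
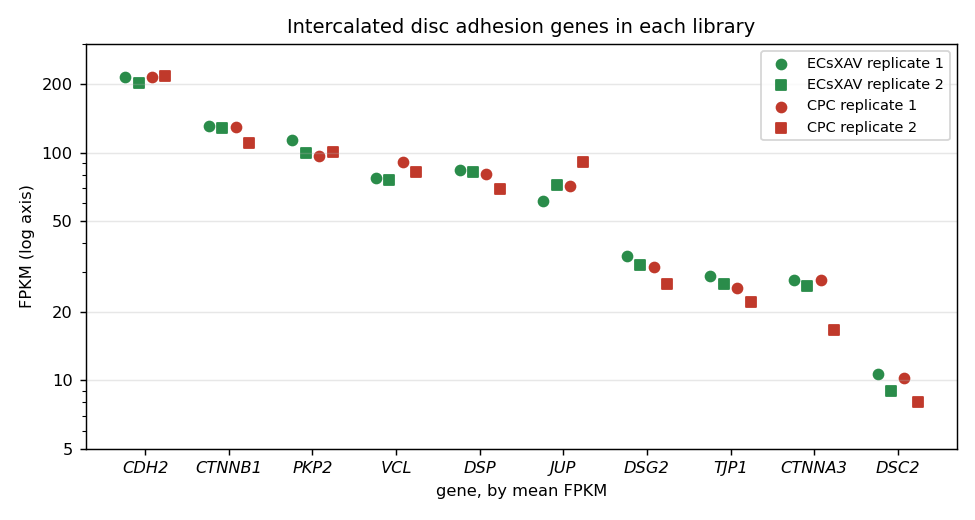
FPKM on a log axis (y axis) of the 10 genes in order of their mean (x axis), with 1 point for each of the 4 libraries (green ECsXAV, red CPC, circles replicate 1, squares replicate 2). The order from CDH2 to DSC2 is broadly shared by the libraries, and CTNNA3 in CPC replicate 2 (16.6 FPKM) lies apart from the other 3 libraries (25.9 to 27.5 FPKM).

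Desmoplakin, the link from the desmosome to desmin, is encoded by DSP on chromosome 6 (7541571 to 7586947, plus strand, GRCh37, the build of hg19). Its FPKM were 83.5 and 81.9 in ECsXAV and 80.8 and 69.1 in CPC. CPC replicate 2 was the low library, and the other 3 lay close together. The log2 fold change was -0.14 ± 0.13 (SE, n = 2 per group, 95% interval -0.47 to 0.18, limma adjusted p = 0.609). The long isoform I of 2871 amino acids made up 81.7% to 91.5% of DSP in all libraries. The short isoform II of 2272 amino acids took 11.5% and 18.3% in ECsXAV and 8.47% and 17.9% in CPC, so replicates differed more than the groups.

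DSG2, on chromosome 18 (29078140 to 29128971, plus strand), encodes desmoglein 2, the desmoglein of heart muscle. Its FPKM were 35.1 and 32.1 in ECsXAV and 31.4 and 26.4 in CPC. The lower ECsXAV library lay closer to the higher CPC library than to its own replicate, with a log2 fold change of -0.22 ± 0.13 (SE, 95% interval -0.56 to 0.13, limma adjusted p = 0.477). DSG2 supplied at least 99.8% of the summed desmoglein FPKM, with DSG3 and DSG4 listed at 0 in each library and DSG1 at no more than 0.0516 FPKM.

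DSC2, on chromosome 18 (28638806 to 28682485, minus strand), encodes the partner cadherin desmocollin 2. Its FPKM were 10.7 and 9.01 in ECsXAV and 10.2 and 8.0 in CPC. Both groups held a higher replicate 1 and a lower replicate 2 and overlapped, with a log2 fold change of -0.11 ± 0.16 (SE, 95% interval -0.52 to 0.31, limma adjusted p = 0.788). DSC2 supplied 98.0% to 99.8% of desmocollin FPKM. Within a library, DSG2 exceeded DSC2 3.29- and 3.56-fold in ECsXAV and 3.08- and 3.30-fold in CPC.

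The tails of desmocollin 2 differ by a 46-base exon, which lies at chr18:28648265-28648310 on the minus strand (GRCh37) and is number 16 of 17 in the transcript that carries it. It is shown because its use sets the isoform shares. It holds 33 coding bases and ends the reading frame, so that DSC2b, with 847 amino acids, lacks the end of the tail of DSC2a, with 901. Capitals mark the exon and lower case the 10 intron bases on each side.
DSC2 exon 16: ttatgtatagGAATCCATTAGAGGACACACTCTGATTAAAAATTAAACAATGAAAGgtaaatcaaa
DSC2b took 63.1% and 38.9% of DSC2 FPKM in the ECsXAV replicates and 26.1% and 32.4% in the CPC replicates. The shares did not overlap, but the ECsXAV replicates lay farther apart than ECsXAV replicate 2 from either CPC library. The mean difference was -21.8 percentage points (exact permutation test, two-sided p = 0.333, the smallest p that 2 libraries against 2 allow). It was -9.63 points without ECsXAV replicate 1 and -33.9 without ECsXAV replicate 2.

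PKP2, on chromosome 12 (32943679 to 33049732, minus strand), encodes plakophilin 2, which binds desmoplakin and the cadherin tails. PKP2 was at 113.9 and 99.3 FPKM in ECsXAV and at 96.8 and 100.3 FPKM in CPC. ECsXAV replicate 1 was the high library and the groups overlapped, with a log2 fold change of -0.11 ± 0.12 (SE, 95% interval -0.43 to 0.21, limma adjusted p = 0.705). Among plakophilins, PKP2 held 86.8% to 90.3% of FPKM and PKP4 most of the rest, and PKP1 and PKP3 were at no more than 0.121 FPKM.

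Nearly all PKP2 RNA was assigned to PKP2a, at 96.4 to 113.9 FPKM. PKP2b was at 0.401 FPKM in CPC replicate 1 and at no more than 0.000211 FPKM in the other 3 libraries.

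JUP, on chromosome 17 (39910856 to 39943183, minus strand), encodes plakoglobin, which serves in desmosomes and adherens junctions alike. Its FPKM were 61.4 and 71.8 in ECsXAV and 71.5 and 91.4 in CPC. Replicate 2 was the higher library in both groups and the groups overlapped. The log2 fold change was 0.28 ± 0.17 (SE, 95% interval -0.15 to 0.71, limma adjusted p = 0.465). It was 0.11 without CPC replicate 2, 0.17 without ECsXAV replicate 1 and 0.46 without CPC replicate 1. JUP made up 32% and 35.8% of the sum of JUP and CTNNB1 in ECsXAV and 35.5% and 45.3% in CPC (exact permutation test, two-sided p = 0.667). Of the 2 JUP transcripts, 1 reached an unadjusted p of 0.0397 (33.8 and 36.5 against 43.0 and 50.03 FPKM), which became 0.357 after adjustment over all transcripts (limma), and its share of JUP overlapped between the groups.

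CDH2, on chromosome 18 (25512843 to 25757910, minus strand), encodes N-cadherin, the classical cadherin of heart muscle. CDH2 was at 215.1 and 202 FPKM in ECsXAV and at 213.9 and 217.1 FPKM in CPC. The groups overlapped and the interval of the difference was among the narrowest here, with a log2 fold change of 0.05 ± 0.12 (SE, 95% interval -0.25 to 0.35, limma adjusted p = 0.873). CDH2 held 77.1% to 78.7% of type I cadherin FPKM. CDH3, which encodes P-cadherin, held 20.9% to 22.5%, at 57.7 to 62.3 FPKM, and the epithelial CDH1 was at 0.0614 to 0.196 FPKM.

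CTNNB1, on chromosome 3 (41236232 to 41301587, plus strand), encodes β-catenin. Its FPKM were 130.6 and 128.6 in ECsXAV and 130.1 and 110.5 in CPC. CPC replicate 1 matched both ECsXAV libraries to within 2 FPKM and CPC replicate 2 was lower, with a log2 fold change of -0.11 ± 0.13 (SE, 95% interval -0.45 to 0.23, limma adjusted p = 0.718). Of its 3 transcripts, 1 had shares that did not overlap, 29.4% and 32.6% of CTNNB1 FPKM in ECsXAV and 27.4% and 23.4% in CPC, a mean difference of -5.55 percentage points (exact permutation test, two-sided p = 0.333, the smallest possible) that was -3.54 without CPC replicate 2. These are RNA levels, and XAV acts on the stability of the β-catenin protein, which was not measured here.

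CTNNA3, on chromosome 10 (67672215 to 69523395, minus strand), encodes αT-catenin, an α-catenin found mainly in heart muscle and testis. CTNNA3 was at 27.5 and 25.9 FPKM in ECsXAV and at 27.5 and 16.6 FPKM in CPC. The low CPC replicate 2 set both the mean and the width of the interval, with a log2 fold change of -0.30 ± 0.25 (SE, 95% interval -0.94 to 0.33, limma adjusted p = 0.578). Without that library the value was 0.04. CTNNA3 held 11.4% to 19.8% of α-catenin FPKM, most of which was the widely expressed CTNNA1 at 110.6 to 151.5 FPKM.

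VCL, on chromosome 10 (75754951 to 75881121, plus strand), encodes vinculin, which couples α-catenin and talin to actin. VCL was at 77.4 and 76.1 FPKM in ECsXAV and at 90.7 and 82.2 FPKM in CPC. Both CPC libraries were the higher, with a log2 fold change of 0.17 ± 0.11 (SE, 95% interval -0.12 to 0.46, limma adjusted p = 0.500). Metavinculin, the muscle isoform, has 1134 amino acids against 1066 in vinculin through a 204-base exon at chr10:75871667-75871870 on the plus strand (GRCh37), number 19 of 22. The exon is shown, in capitals, because its share of VCL separated the groups with little spread within each.
VCL exon 19: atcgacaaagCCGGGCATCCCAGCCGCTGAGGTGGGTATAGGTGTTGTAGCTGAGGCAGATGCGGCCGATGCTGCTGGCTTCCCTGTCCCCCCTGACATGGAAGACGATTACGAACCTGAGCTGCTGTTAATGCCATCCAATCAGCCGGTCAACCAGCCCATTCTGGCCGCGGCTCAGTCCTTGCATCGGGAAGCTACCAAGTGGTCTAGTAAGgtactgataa
Metavinculin took 12.3% and 12.5% of VCL FPKM in ECsXAV and 8.87% and 7.88% in CPC. The mean difference was -4.04 percentage points, against an SD of 0.128 points in ECsXAV and 0.701 in CPC (n = 2 each, exact permutation test, two-sided p = 0.333, the smallest possible). Metavinculin itself was at 9.54 and 9.51 FPKM in ECsXAV and 8.05 and 6.48 FPKM in CPC, and did not pass the test (log2 fold change -0.36, 95% interval -0.79 to 0.08, limma adjusted p = 0.456). In a limma fit of metavinculin against the rest of VCL, the log2 difference was -0.59 (95% interval -1.76 to 0.59, adjusted p = 0.836). The interval of that fit includes 0.

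TJP1, on chromosome 15 (29991571 to 30261118, minus strand), encodes ZO-1, a scaffold that binds α-catenin and connexin 43. TJP1 was at 28.8 and 26.4 FPKM in ECsXAV and at 25.5 and 22.0 FPKM in CPC. The lower ECsXAV library lay closer to the higher CPC library than to its own replicate, with a log2 fold change of -0.21 ± 0.12 (SE, 95% interval -0.53 to 0.11, limma adjusted p = 0.462). The α exon of 240 bases lies at chr15:30011981-30012220 on the minus strand (GRCh37), number 20 of 28, and separates isoforms of 1748 and 1668 amino acids.
TJP1 exon 20: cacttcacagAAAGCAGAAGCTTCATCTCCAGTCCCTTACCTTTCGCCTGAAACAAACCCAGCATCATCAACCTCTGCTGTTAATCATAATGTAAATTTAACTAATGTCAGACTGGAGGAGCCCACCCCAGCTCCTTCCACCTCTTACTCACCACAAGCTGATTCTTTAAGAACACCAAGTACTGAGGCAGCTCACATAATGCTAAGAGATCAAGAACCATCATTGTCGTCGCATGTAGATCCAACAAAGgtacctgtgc
The transcript with this exon, shown in capitals for its share, took 36.5% and 32.9% of TJP1 FPKM in ECsXAV and 27.5% and 27.8% in CPC. The mean difference was -7.04 percentage points (exact permutation test, two-sided p = 0.333, the smallest possible). Its own level was at 10.5 and 8.68 against 7.02 and 6.13 FPKM, with an unadjusted p of 0.0425 and an adjusted p of 0.363 (limma over all transcripts).

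Transcripts were compared for the 10 genes together as well. Of 19 transcripts, 17 were tested and 0 passed the criterion in limma, beside 0.0727% of all tested transcripts, and 2 had an unadjusted p under 0.05, against 13.1% of all. Shares could be compared for 13 transcripts of 6 genes, and 7 transcripts of 4 genes (DSC2, CTNNB1, VCL and TJP1) did not overlap between the groups. The 2 transcripts of DSC2, of VCL and of TJP1 are complements of each other, and non-overlap occurred in 38.2% of all compared transcripts. A limma fit of each transcript against the rest of its gene, added after the data were seen, gave 0 of the 13 at an adjusted p under 0.05 and 0 at an unadjusted p under 0.05, where all compared transcripts had 0.0% and 7.20%. Transcript FPKM are estimates that divide shared reads between isoforms, and no error of that division was used here.

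**Figure D3:**
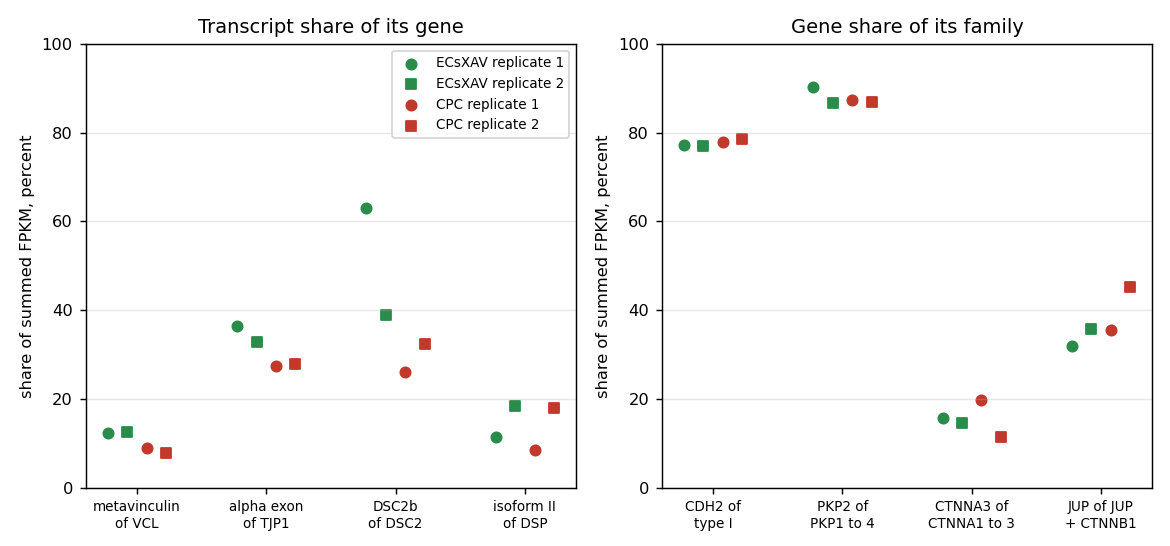
Share of summed FPKM in percent (y axis) of a transcript within its gene (left) and of a gene within its family (right), with 1 point for each of the 4 libraries. Metavinculin and the TJP1 transcript with the α exon lie lower in both CPC libraries, DSC2b also does but with wide spread in ECsXAV, and the other shares drawn overlap or differ by about 1 percentage point.

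Other junction genes were taken from 4 lists of 59 genes, of which 36 were tested. The criterion was passed by 2 of the 36, GJA1 and TLN2, both higher in ECsXAV, where 1.44% of all tested genes passed in that direction, and by 0 in the direction of CPC, where 0.710% did. The median log2 fold change was -0.10 over the 36 genes, and 12 of them had an unadjusted p under 0.05, against 18.2% of all tested genes. GJA1, which encodes connexin 43, the main gap junction protein of ventricular muscle and a partner of ZO-1, was at 16.2 and 19.7 FPKM in ECsXAV and 2.63 and 3.60 FPKM in CPC, and fell by 2.21 on the log2 scale (SE 0.17, limma adjusted p = 0.0139). TLN2, which encodes talin 2, a muscle partner of vinculin, was at 11.5 and 9.97 FPKM in ECsXAV and 3.43 and 3.75 FPKM in CPC, and fell by 1.35 (SE 0.13, limma adjusted p = 0.0195). Leaving out any 1 of the 4 libraries ended both calls, with adjusted p of 0.0598 to 0.11 for GJA1 and 0.103 to 0.151 for TLN2, and both values kept their sign. TLN1, which encodes the widely expressed talin 1, was at 17.5 to 20.2 FPKM, so the ratio of TLN1 to TLN2 was 1.61 and 1.96 in ECsXAV and 5.89 and 4.67 in CPC. GJA1 is expressed by stromal and smooth muscle cells as well as by cardiomyocytes. Of the markers of those cells, 3 of 8 stromal and 1 of 4 smooth muscle genes passed the criterion, all higher in ECsXAV. The others did not pass or were not tested, as given above, and the part of those cells was not tested.

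In the other lists none passed in limma, and the genes with the largest values are given. Of 12 other desmosome genes, 4 were tested, 2 at an unadjusted p under 0.05. PERP, a desmosome-associated membrane protein, was at 25.0 and 22.2 FPKM in ECsXAV and 18.9 and 14.9 FPKM in CPC (log2 fold change -0.46, limma adjusted p = 0.209). PPL, which encodes periplakin, had -0.45 (adjusted p = 0.229) and DES, which encodes desmin, -0.20 (adjusted p = 0.541). Of 18 other cadherins, 6 were tested, 0 at an unadjusted p under 0.05, and the largest values were those of CDH5 (-0.41), CDH11 (-0.10) and CDH13 (0.09). Of 11 other catenins and nectins, 10 were tested, 4 at an unadjusted p under 0.05. CTNND2, which encodes δ-catenin, was at 3.32 and 2.93 against 1.44 and 1.57 FPKM (-0.72, limma adjusted p = 0.0765), ARVCF, a p120-catenin relative, had -0.64 (adjusted p = 0.0978) and PVRL1, which encodes nectin 1, -0.50 (adjusted p = 0.150).

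The replicates themselves differed along base composition and transcript length. Across 11006 genes matched to the annotation, the median log2 ratio of CPC replicate 2 over replicate 1 ran from -0.29 in the lowest of 5 equal groups by GC content to 0.18 in the highest, and that of ECsXAV from -0.11 to 0.20. Between the groups the medians of the same 5 groups lay from -0.03 to 0.01. In 5 groups by transcript length, the median of CPC replicate 2 over replicate 1 ran from 0.18 in the shortest to -0.21 in the longest. That of ECsXAV ran from 0.09 to -0.03. DSP, DSC2, CTNNA3, VCL and TJP1 were in the longest group. CTNNA3, with 37.1% GC, had a log2 ratio of -0.73 between the CPC replicates, and JUP, with 61.5% GC, one of 0.35, each beyond the median of its GC group. CPC replicate 2 was the lowest library for 6 of the 10 genes, as it was for 29.6% of tested genes. The part of GC content or transcript length in the values of the 10 genes was not tested.

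**Figure D4:**
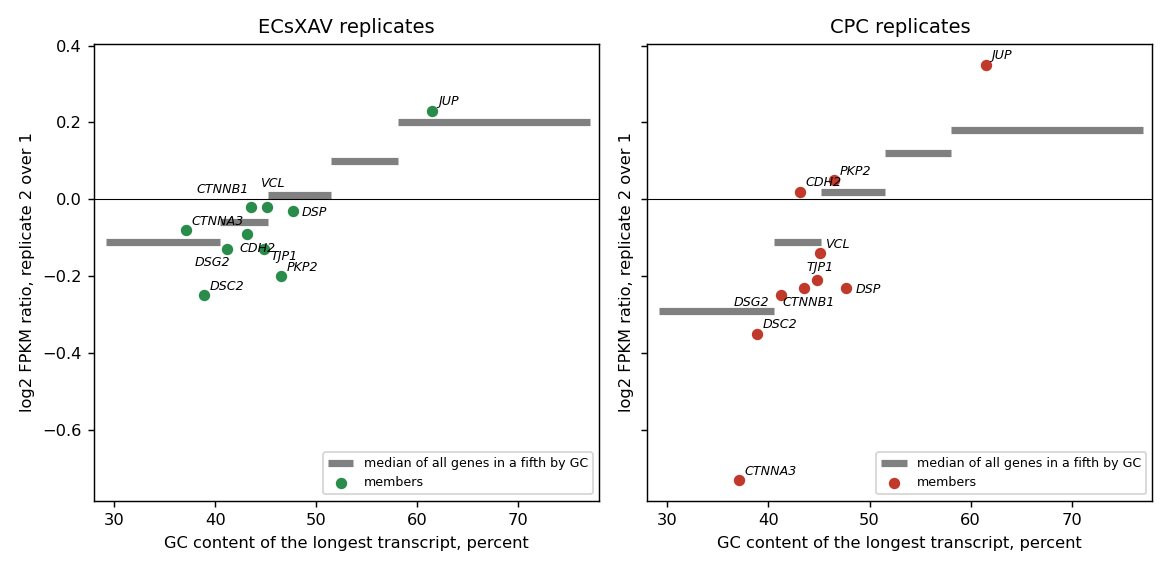
Log2 FPKM ratio of replicate 2 over replicate 1 (y axis) against the GC content of the longest transcript in percent (x axis) in ECsXAV (left) and CPC (right). Points are the 10 genes and grey bars the medians of all matched genes in each of 5 groups by GC content, which rise from left to right in both groups, and CTNNA3 in CPC lies lowest at -0.73.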

How the data were processed

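The authors prepared poly-A libraries (TruSeq) and computed FPKM with Cufflinks 2.1.1 and UCSC gene annotation on hg19, and the submitters' processing notes also name TopHat 1.3.3. The deposited values used here are FPKM per gene and per transcript. Read counts were not used here, so depth was estimated only relative to ECsXAV replicate 1, from the steps of low values, and the least deep library is the least precise. Doses and days came from the study's methods. Differences were fitted on log2(FPKM + 1) in limma (version 3.58.1, R 4.3.3), letting the variance prior follow the level. Only the 12398 genes at a mean of 1 FPKM or more were fitted, and p-values were adjusted over all of them by Benjamini-Hochberg. The added 1 understates changes of low genes. Symbols with several rows kept the row with the highest mean. Shares were compared by exact permutation tests over libraries. The fit was tested on simulated data with 2 assumed spreads between genes. It recovered most changed genes under both, while the fit with the replicate number as a block did so under only 1 of them. The run was set to go on only if the fit without a block recovered enough of them. The planted changes were larger than that of any of the 10 genes, so the simulation cannot tell how well small changes are found. Coordinates, exons, GC content and transcript length came from GENCODE lifted to GRCh37, with isoforms matched by coded length. Other steps ran in Python 3.11.15 (matplotlib 3.10.9, NumPy 2.4.6, pandas 2.3.3). The genes and lists were chosen with earlier results of these data known. All 10 genes were described, and of each related list the genes past the criterion and, where fewer than 3 passed, the 3 with the largest change. TLN1 and the other family members were named for their relation to these. Apart from these, 1 gene that the rule names and 1 further exon sequence are not reported here.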

Additional observations from a re-analysis of the deposited data

How the results depend on the processing

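Each of the 10 genes was refitted under 16 alternatives. None passed the criterion in any of the 160 values, the smallest adjusted p was 0.0989 (JUP, without short RNA genes and with the replicate block), and the largest absolute log2 fold change was 0.65. Direction was kept in 156 of 160. The other 4 arose when a library was left out, DSC2 (range over the 4 fits -0.26 to 0.05), CTNNA3 (-0.65 to 0.04) and CTNNB1 (-0.23 to 0.01). The number of all tested genes past the criterion, 266, became 20 with no filter on low values, 152 at a mean of at least 5 FPKM and 176 with the replicate block, and 50 to 118 when a library was left out. The related genes past the criterion went from 2 to 0 with no filter (GJA1 adjusted p = 0.0617, TLN2 adjusted p = 0.066, limma). Other settings gave smaller limma adjusted p, 0.000302 and 0.00114 without short RNA genes and 0.000519 and 0.00195 with a robust variance prior. The count over all tested genes rose to 344 with that prior and to 311 with 0.1 added in place of 1. When a library was left out, 1 group held a lone library assumed to vary like the other group. GJA1 then had -2.38 to -2.04 and TLN2 -1.44 to -1.26. The causes of the changes in these counts were not tested. Without short RNA genes the block gave 345 genes and no block 339. The groups share replicate numbers, and the labels do not say whether these mark a shared batch. Between the groups' replicate differences, the rank correlation was 0.356 and Pearson's r 0.035 over 12398 genes. Over the 12094 genes left without short RNA genes, these values were 0.376 and 0.183. The block changed no call among the 10 genes or the 2 related genes. In the simulation the block fit recovered no changed gene when raw spreads between genes were assumed and made too many false calls when moderated spreads were, so its counts are given as values only. Among the log2 fold changes of other features, direction turned when a library was left out for CDH11 (-0.19 to 0.00) and for transcripts of DSP (-0.73 to 0.03 for isoform II, -0.30 to 0.07 for isoform I), JUP (-0.13 to 0.40), CTNNA3 (-0.65 to 0.04), CTNNB1 (-0.08 to 0.00 and -0.14 to 0.33) and TJP1 without the α exon (-0.17 to 0.04). In percentage points, it turned for the shares of DSG2 (-0.0178 to 0.105), PKP2 (-3.16 to 0.339), PKP4 (-0.448 to 3.01), CTNNA1 (-4.98 to 3.67) and CTNNA3 (-3.80 to 4.68) in their families, and of the transcripts of DSP (-6.46 to 2.93 for isoform II, -2.93 to 6.46 for isoform I) and CTNNB1 (-1.15 to 6.11 and -0.327 to 6.47). With 2 libraries in a group, small changes could be missed, and the intervals do not mark the smallest change that could pass the criterion. The intervals of CTNND2 (-1.07 to -0.36), ARVCF (-1.0 to -0.28) and PVRL1 (-0.86 to -0.15) excluded 0, yet these genes did not pass. Without short RNA genes, the limma adjusted p was 0.022 for CTNND2 and 0.0367 for ARVCF, at changes under 2-fold. For PVRL1 it was then 0.0867 and for PERP 0.108.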
